A study of Mus musculus with 12 samples.

Results

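This account covers 9 genes of the antibody system in the lung. They are the constant region genes of the heavy chain classes (Ighm, Ighd, Ighg1, Ighg2b, Ighg2c, Ighg3 and Igha), the joining chain gene Jchain, and Pigr, which encodes the polymeric immunoglobulin receptor. They were chosen by symbol from the 49585 genes of the count table, with no measured value in the rule. Earlier results of these data were known when the choice was made. All 9 were among the 18556 genes with enough counts to be tested.

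The tissue was whole lung from C57BL/6J mice bearing a melanoma, which grew under the skin from injected MO4 cells, a melanoma line. Poly(A) RNA was sequenced in 12 libraries. There were 4 groups of 3 libraries, numbered 1 to 3 in the labels. Every antibody was injected into the peritoneum. The young anti-PD-1 group consisted of mice aged 2 months that received an antibody against PD-1, a receptor that restrains activated T cells. The other groups were aged 22 months. The aged control group was given a rat antibody of matched isotype, and the aged anti-PD-1 group was given the same anti-PD-1 as the young mice. In the combination group, an antibody to the receptor of the cytokine IL-21 was added to anti-PD-1. For anti-PD-1 and the control antibody the labels give days 3, 7 and 11 after the tumour cells were injected. A young group without anti-PD-1 was not analysed here, so age was compared under anti-PD-1 only. The labels do not say whether the 3 libraries of a group are separate mice. The p-values then measure only the spread between these samples, which may be technical.

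As background, a naive B cell makes IgM and IgD from a single long transcript that is spliced to either Ighm or Ighd. Class switch recombination then joins the same variable region to a constant gene further downstream, and the cell makes IgG, IgE or IgA. Plasma cells carry far more heavy chain transcript than resting B cells, and they secrete the antibody. The joining chain links IgA into dimers and IgM into larger polymers. Pigr on the basal side of airway epithelium binds such polymers and carries them into the airway lumen as secretory antibody. IL-21, made chiefly by helper T cells, acts on B cells during switching and plasma cell formation.

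The 7 heavy chain genes lie in a row on the minus strand of chromosome 12 (mm10). In the direction of transcription these are Ighm (113418558 to 113422730), Ighd (113406604 to 113416324), Ighg3 (113359575 to 113361232), Ighg1 (113325240 to 113330523), Ighg2b (113302965 to 113307933), Ighg2c (113285325 to 113288932) and Igha (113254830 to 113260236). Jchain lies on chromosome 5 (88519809 to 88527891, minus strand) and Pigr on chromosome 1 (130826684 to 130852249, plus strand). Counts of a constant gene hold the secreted and the membrane form together, and also transcripts of the germline gene made before switching. The deposited span of Ighg3 leaves out its membrane exons (GENCODE M21 starts the gene at 113356224), while the other 8 spans equal those of GENCODE M21.

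The 4 IgG genes are counted apart below, and their hinge exons are where they differ most plainly to the eye. The hinge joins the antigen-binding arms to the stem of the antibody, and its cysteines tie the heavy chains together. The hinge exons are shown 5′ to 3′ on the coding strand from GENCODE M21 transcripts on mm10, all on the minus strand, with in-frame cysteine codons in capitals.
Ighg1, chr12:113329844-113329882: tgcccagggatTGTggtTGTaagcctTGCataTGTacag
Ighg2b, chr12:113307261-113307326: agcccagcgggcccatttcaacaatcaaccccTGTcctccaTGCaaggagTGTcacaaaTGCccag
Ighg2c, chr12:113288263-113288325: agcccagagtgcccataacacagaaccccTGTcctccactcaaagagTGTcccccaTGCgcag
Ighg3, chr12:113360529-113360576: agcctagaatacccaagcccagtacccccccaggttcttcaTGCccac
The Ighg1 and Ighg2b exons hold 4 such codons each in 39 and 66 bases, the Ighg2c exon holds 3 in 63 bases and the Ighg3 exon holds 1 in 48 bases. Over the whole exon sequence of each gene, 5.49% of the 50-base words of Ighg2c, 4.15% of Ighg2b, 1.58% of Ighg3 and 0.393% of Ighg1 also occur in another of the IgG genes. None (0.0%) of those of Ighm, Ighd or Igha occur in another heavy chain gene. The Ighg3 words include its membrane exons, which the counted span leaves out, so overlap with that span may differ. Reads from the shared stretches of the IgG genes can therefore be split between genes or dropped, depending on counting options that are not given in the sources used here.

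The joining chain attaches to IgM and IgA and not to IgG. It bonds to a cysteine near the end of the tailpiece, the extra stretch with which the secreted IgM and IgA chains finish. The coding sequence that follows the splice site of the membrane form, up to the stop codon, is shown for both, again on the minus strand with the cysteine codon in capitals.
Ighm, chr12:113420870-113420928: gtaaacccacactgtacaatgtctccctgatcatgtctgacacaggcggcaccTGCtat
Igha, chr12:113258771-113258829: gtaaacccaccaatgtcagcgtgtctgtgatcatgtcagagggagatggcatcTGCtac
Each stretch has 59 bases. At the same position each of the 4 IgG genes has 5 bases (gtaaa) and no cysteine codon.

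Counted reads per library ran from 16021877 to 22058620. Lung markers were abundant: the surfactant gene Sftpc averaged between 9876 and 16972 CPM in the 4 groups. The 10 cell types checked also included melanocytes, hepatocytes and thymocytes. No counted marker gene of the 10 types was at 0 in all libraries, though some had few reads. The hepatocyte gene Alb had 13, 67 and 148 reads in aged anti-PD-1 libraries. The 1 tested hepatocyte marker was called higher there than in young and in aged control lungs. Mitochondrial transcripts took 6.05 to 7.22% of reads in young, 7.32 to 10.4% in aged control, 7.88 to 11.9% in aged anti-PD-1 and 11.5 to 14.9% in combination libraries. The labels name no batch. Levels are given as CPM, the count scaled to library size with TMM factors. A gene is called where edgeR's quasi-likelihood test gave it an adjusted p under 0.05, with Benjamini-Hochberg adjustment over the 18556 genes. In the gene lists below, genes counted as having risen or fallen were called. Fold changes on the log2 scale carry their SE, and levels in CPM are means ± SD, each with 3 libraries a group.

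The lungs of aged mice carried far more antibody transcript than those of young mice under the same anti-PD-1 treatment. All 7 heavy chain genes and Jchain rose, and Pigr was not called. The call was made for 8 of 9 genes, all higher, where 8.09% of all genes tested were called higher and 7.16% lower (15.3% in all). The median log2 fold change was 4.29 over the 9 genes and -0.01 over all genes tested. The groups did not overlap in any of the 9 genes, with 8 higher and Pigr lower in aged lungs. Without overlap, 19.7% of all genes tested stood higher and 19.9% lower. Heavy chain reads made up 0.0254 ± 0.000641% of all counted reads in young lungs, 0.134 ± 0.0867% in aged control, 0.239 ± 0.053% in aged anti-PD-1 and 0.245 ± 0.102% in combination lungs (SD, n = 3 each). In bulk tissue, more cells of a type and more RNA in each cell cannot be told apart.

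**Figure D1:**
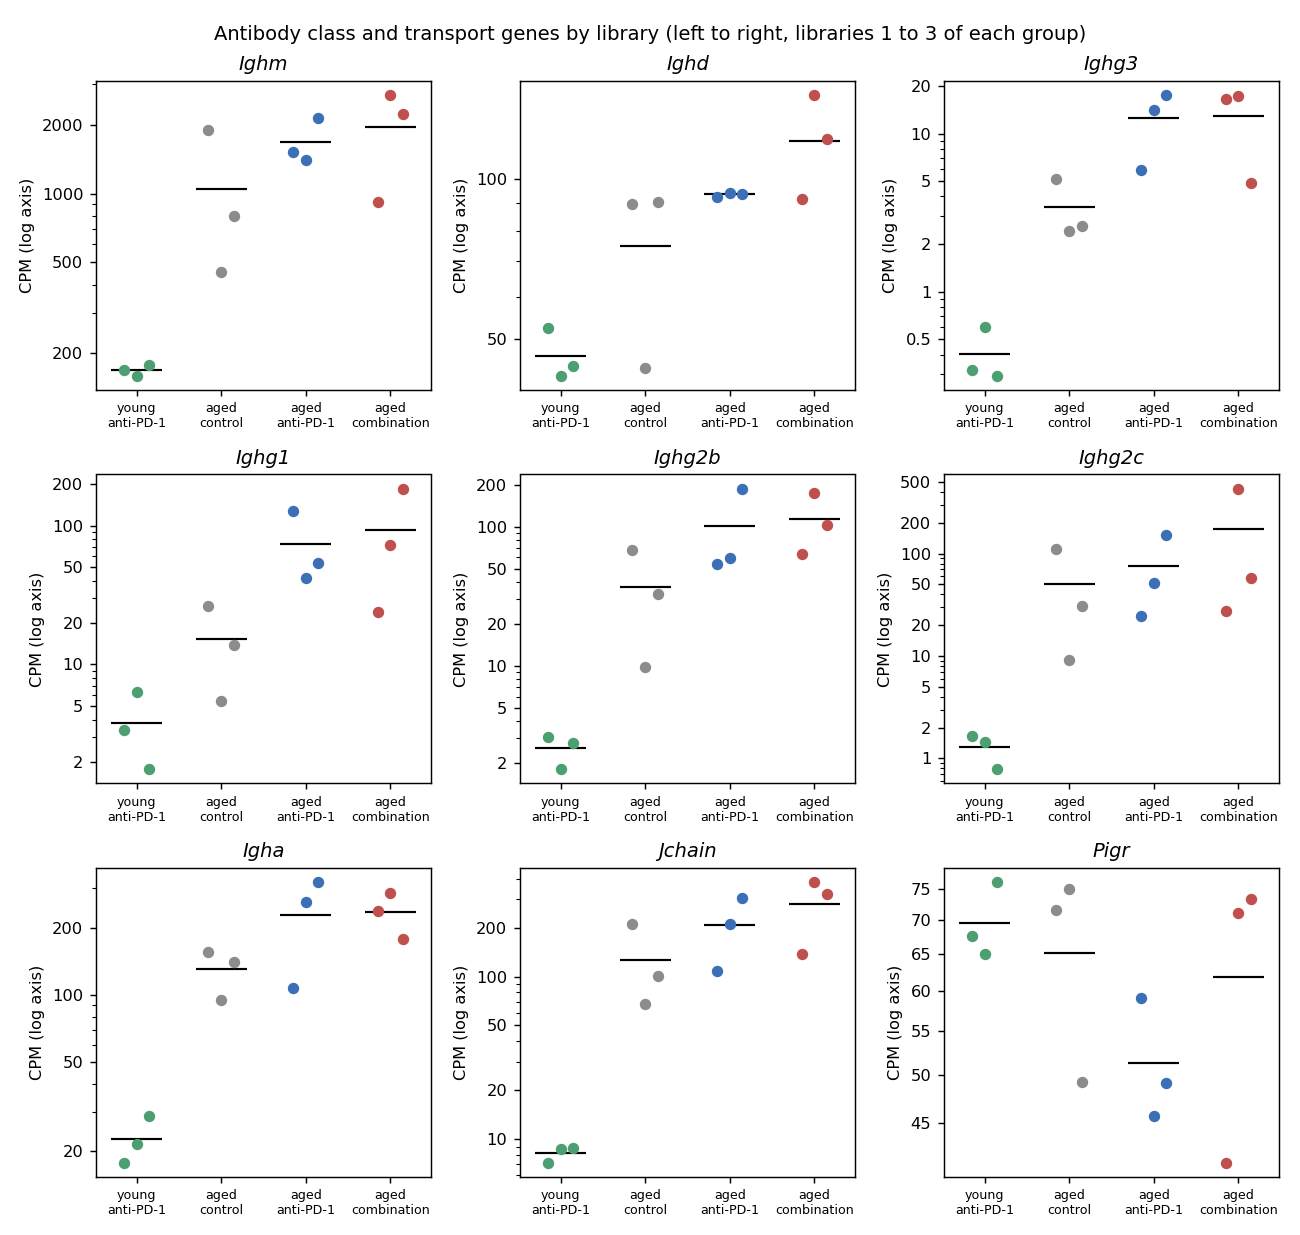
TMM-scaled CPM of each of the 9 genes (log axis) in the 12 libraries, with points for libraries 1 to 3 of each group from left to right and a bar for the group mean. The young libraries lie below all 9 aged libraries in 6 panels, and Pigr has the narrowest range, from 41.3 to 76.1 CPM.

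The group means of 8 genes stood in the same order: young anti-PD-1, aged control, aged anti-PD-1, combination. Pigr ran from aged anti-PD-1 (lowest) through combination and aged control to young. All 3 young libraries lay below all 9 aged libraries for Ighm, Ighg2b, Ighg2c, Ighg3, Igha and Jchain, a pattern met by 5.5% of all genes tested. For Ighd and Ighg1 the lowest aged control library fell within the young range. Neighbours in the order among the aged groups are compared below, and only the Ighg3 step from aged control to aged anti-PD-1 was called.

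Ighm, the IgM heavy chain, was at 169, 159.6 and 177 CPM in young libraries 1 to 3. It was at 1889, 455 and 796 CPM in aged control, 1526, 1405 and 2132 in aged anti-PD-1 and 915, 2695 and 2228 in combination libraries. The young values lay within a narrow band, and the aged control and combination groups each spread widely (4.15-fold and 2.95-fold from lowest to highest). Ighm rose 10-fold in aged over young anti-PD-1 lungs (log2 fold change 3.33 ± 0.52, edgeR adjusted p 0.0029).

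Ighd, the IgD heavy chain carried mainly by mature naive B cells, gave the smallest rise of the 8 called genes. It stood at 52.4, 42.6 and 44.4 CPM in young, 89.7, 44.1 and 90.4 in aged control, 92.6, 94.3 and 93.8 in aged anti-PD-1 and 91.6, 144 and 119 in combination libraries. Aged control library 2 was as low as the young libraries. The rise from young to aged anti-PD-1 lungs was 2.01-fold (1.01 ± 0.23, edgeR adjusted p 0.0126). That call was lost without young library 2 (edgeR adjusted p 0.0552) or young library 3 (0.0531).

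The ratio of Ighm to Ighd in reads per kilobase of exon was 3.24, 3.77 and 4.01 in young libraries. It was 21.2, 10.4 and 8.87 in aged control, 16.6, 15 and 22.9 in aged anti-PD-1 and 10.1, 18.8 and 18.8 in combination libraries. The highest young ratio was below the lowest aged one. Against the summed CPM of 8 B cell markers, Ighd held a level of 0.191 ± 0.0213 in young, 0.21 ± 0.0157 in aged control, 0.198 ± 0.0131 in aged anti-PD-1 and 0.21 ± 0.0135 in combination lungs (SD, n = 3 each). Ighm over the same sum was 0.69 ± 0.0227, 2.86 ± 1.62, 3.55 ± 0.726 and 3.29 ± 0.976 in that order. So Ighd kept pace with the B cell markers across the groups, while Ighm per B cell marker was several-fold higher in every aged group. These ratios are descriptions and were not tested.

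The IgG subclasses stood 19.5- to 58.1-fold higher in aged than in young anti-PD-1 lungs and spread widely between libraries. Ighg3, a subclass known from responses that need little T cell help, was at 0.32, 0.6 and 0.294 CPM in young libraries, where it rests on 6 to 12 reads. It reached 5.19, 2.43 and 2.62 CPM in aged control, 5.84, 14.0 and 17.5 in aged anti-PD-1 and 16.5, 17.2 and 4.88 in combination libraries. Every aged library stood above every young one. Ighg3 rose 30.4-fold in aged over young anti-PD-1 lungs (4.92 ± 0.65, edgeR adjusted p 0.000903).

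Ighg1, the subclass favoured by IL-4, was at 3.38, 6.3 and 1.76 CPM in young and 26.4, 5.47 and 13.7 in aged control libraries, so these groups overlapped. It was at 127, 42.0 and 53.5 CPM in aged anti-PD-1 and 23.7, 72.1 and 185 in combination libraries. The rise in aged over young anti-PD-1 lungs was 19.5-fold (4.29 ± 0.95, edgeR adjusted p 0.0183). That call ended when any young library was left out, with an edgeR adjusted p of 0.064, 0.0521 and 0.0802 without library 1, 2 and 3.

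Ighg2b was at 3.06, 1.8 and 2.79 CPM in young, 67.5, 9.82 and 33.0 in aged control, 53.5, 59.8 and 188 in aged anti-PD-1 and 63.1, 174 and 102 in combination libraries. It rose 39.1-fold with age under anti-PD-1 (5.29 ± 0.90, edgeR adjusted p 0.00629). Ighg2c, the subclass favoured by interferon gamma and the form that C57BL/6 mice carry in place of Ighg2a, was at 1.64, 1.45 and 0.784 CPM in young libraries (16 to 36 reads). Its aged values were 111, 9.2 and 31.0 CPM in control, 24.4, 52.0 and 151 in anti-PD-1 and 27.8, 432 and 57.6 in combination libraries. A single library, combination library 2, set the combination mean of 172 ± 225 CPM (SD, n = 3).

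The Ighg2c rise with age was 58.1-fold (5.86 ± 1.58), the largest of the 9 and the least precise, with an edgeR adjusted p of 0.038. It did not hold when any young library was left out (edgeR adjusted p 0.105, 0.118 and 0.136 without library 1, 2 and 3), nor without aged anti-PD-1 library 2 (0.0618) or 3 (0.119). The call was also lost with limma-voom (adjusted p 0.197) and without the low-count filter (edgeR adjusted p 0.0751). The biological coefficient of variation fitted to Ighg2c was 0.903, above that of 99.9% of genes tested. It was 0.672 for Ighg1, 0.585 for Ighg2b and 0.413 for Ighg3, against a median of 0.147 over all genes.

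Igha, the IgA heavy chain of mucosal antibody, was at 17.8, 21.5 and 28.8 CPM in young and 156, 95 and 141 in aged control libraries. It was at 107, 259.6 and 319.9 CPM in aged anti-PD-1 and 238, 286 and 178 in combination libraries. Igha rose 10.1-fold in aged over young anti-PD-1 lungs (3.34 ± 0.38, edgeR adjusted p 0.000504), much like Ighm in size and with a smaller error. Its fitted coefficient of variation of 0.293 was below those of Ighm (0.396) and of every IgG gene.

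Jchain was at 7.17, 8.66 and 8.82 CPM in young, 210.1, 68.1 and 100.1 in aged control, 108, 209 and 305 in aged anti-PD-1 and 138, 381 and 321 in combination libraries. Its rise with age under anti-PD-1 was 25.2-fold (4.66 ± 0.59, edgeR adjusted p 0.00144), against 10-fold for Ighm and 10.1-fold for Igha, the heavy chains it attaches to. These differences in size were not tested. Per kilobase, Jchain over the sum of Ighm and Igha was 0.0334 ± 0.00374 in young, 0.0868 ± 0.00985 in aged control, 0.082 ± 0.0274 in aged anti-PD-1 and 0.0987 ± 0.0033 in combination lungs (SD, n = 3 each). In the last group the 3 libraries gave 0.0955, 0.0986 and 0.102, although Ighm itself ranged 2.95-fold there. Aged anti-PD-1 library 1 was low for an aged library at 0.0504, and it was also the lowest of its group in Igha.

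Pigr, the epithelial carrier, did not follow the antibody genes. It was at 67.7, 65.0 and 76.1 CPM in young and 71.6, 74.9 and 49.2 in aged control libraries. It was at 59.1, 45.7 and 49.1 CPM in aged anti-PD-1 and 41.3, 71.1 and 73.4 in combination libraries. The aged anti-PD-1 values were all below the young ones, but the difference was not called (-0.44 ± 0.20, edgeR adjusted p 0.17). In a fit of these groups alone it was called (log2 fold change -0.43, edgeR adjusted p 0.0194).

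The balance between cargo and carrier differed accordingly. Jchain over Pigr per kilobase was 0.189 ± 0.0221 in young, 3.13 ± 1.62 in aged control, 6.72 ± 3.55 in aged anti-PD-1 and 6.97 ± 1.62 in combination lungs (SD, n = 3 each). Igha over Pigr was 0.488 ± 0.0882, 3.17 ± 1.2, 7.04 ± 3.78 and 6.13 ± 2.51 in that order. Both ratios were lower in each young library than in any aged one, and neither was tested.

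**Figure D2:**
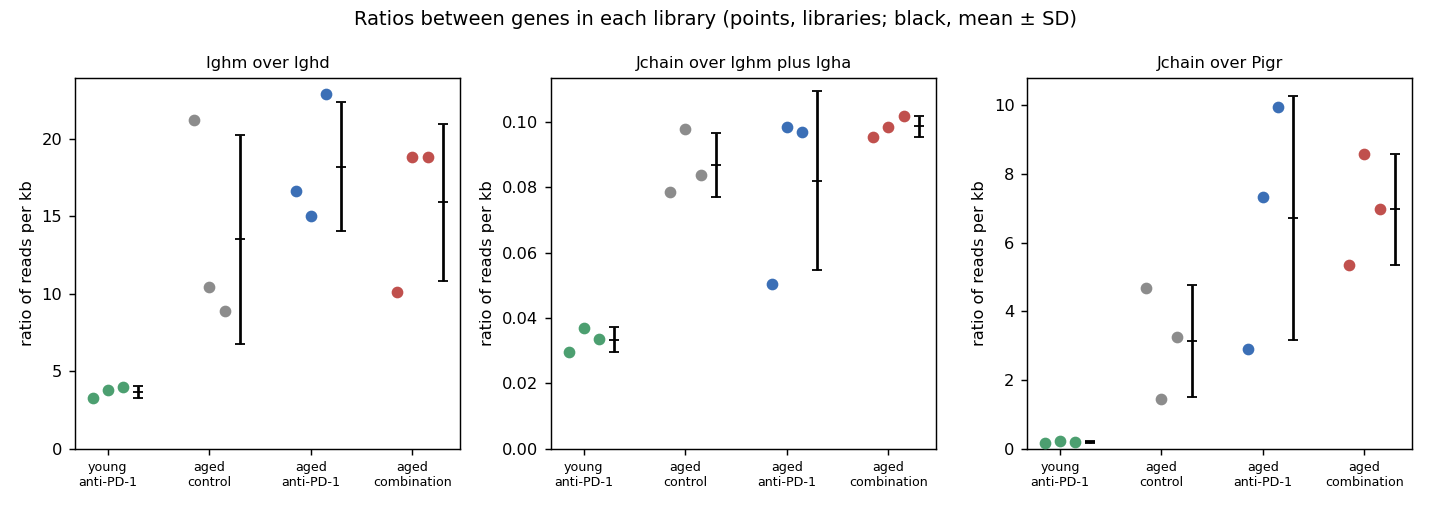
Ratios of reads per kilobase in each library (points) with mean ± SD for each group (black): Ighm over Ighd, Jchain over Ighm plus Igha, and Jchain over Pigr. The young libraries lie lowest in all 3 panels, and Jchain over Ighm plus Igha is tightest in the combination group (0.0955 to 0.102).

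The next comparison asked what anti-PD-1 changed in aged lungs. Ighg3 was the single gene of the 9 that edgeR called, 3.62-fold over aged control (1.85 ± 0.50, edgeR adjusted p 0.0348). The shares called over all genes tested were 5.34% higher and 5.58% lower (10.9% in all). The log2 fold change was above 0 for the other 6 heavy chain genes and Jchain as well, but none was called. The largest was Ighg1 at 2.29 ± 0.84 (edgeR adjusted p 0.111), followed by Ighg2b at 1.45 ± 0.71, Igha at 0.81 ± 0.35, Jchain at 0.72 ± 0.49 and Ighm at 0.69 ± 0.48. Ighg2c gave 0.59 ± 1.14, Ighd 0.32 ± 0.23 and Pigr -0.35 ± 0.20. The median over the 9 genes was 0.72, and -0.02 over all genes tested.

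Groups did not overlap for Ighd, Ighg1 and Ighg3, each higher under anti-PD-1, as in 16.1% of all genes tested. The Ighg3 call was lost without aged anti-PD-1 library 2 (edgeR adjusted p 0.0879) or 3 (0.117), and without aged control library 2 (0.132) or 3 (0.0919). It was also lost with limma-voom (adjusted p 0.0892), which called 0 of the 9 genes, and without the low-count filter (edgeR adjusted p 0.127). DESeq2 called Ighg3 and also Ighg1 (adjusted p 0.0375). Igha was called without aged anti-PD-1 library 1 (edgeR adjusted p 0.0245).

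Aged control library 2 was the lowest of the 9 aged libraries in all 7 heavy chain genes. It also had the lowest sum of 8 B cell markers among the aged libraries, 228 CPM. Aged control libraries ran from 228 to 427 CPM, against 223 to 262 in young, 444 to 493 in aged anti-PD-1 and 418 to 666 in combination libraries. No aged library was highest throughout. Aged anti-PD-1 library 3 was highest in Ighg3, Ighg2b and Igha, combination library 2 in Ighm, Ighd and Ighg2c, and combination library 3 in Ighg1.

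The comparison of combination with aged anti-PD-1 lungs asked what the antibody to the IL-21 receptor added. None (0) of the 9 was called by edgeR, where 9.02% of all genes tested were called (4.67% higher and 4.35% lower). DESeq2 and limma-voom also called 0 of the 9, and 0 of the 9 had an unadjusted p under 0.05. Groups overlapped for each of the 9, while 32.2% of all genes tested did not overlap. The largest log2 fold change was 1.18 ± 1.14 for Ighg2c, and the smallest were 0.03 ± 0.34 for Igha and 0.06 ± 0.46 for Ighg3. The others lay between 0.17 ± 0.69 (Ighg2b) and 0.43 ± 0.49 (Jchain), with Ighm at 0.21 ± 0.47, Pigr at 0.27 ± 0.20, Ighg1 at 0.33 ± 0.78 and Ighd at 0.34 ± 0.23. All 9 were above 0 with TMM scaling, but scaling by library totals turned Ighm, Ighg2b, Ighg3 and Igha below 0. Their SE ran from 0.20 to 1.14, and the missing calls do not show that the groups were alike.

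Against aged control, 0 of 18556 genes were called in the combination group by edgeR (0.0% of those tested), although 1228 genes (6.62%) had an unadjusted p under 0.05. DESeq2 called 76 genes, none of them among the 9, and limma-voom called 0. The 9 genes had a median log2 fold change of 1.15, against -0.01 over all genes tested. Those with an unadjusted p under 0.05 were Ighd (0.66 ± 0.23), Ighg1 (2.61 ± 0.85), Ighg3 (1.91 ± 0.50), Igha (0.84 ± 0.35) and Jchain (1.15 ± 0.50). The Ighg3 value was close to that for anti-PD-1 alone, but its edgeR adjusted p here was 0.417. Ighd and Igha did not overlap between the groups, as in 3.92% of all genes tested for higher values. These comparisons share their control or anti-PD-1 libraries and are not independent of each other.

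**Figure D3:**
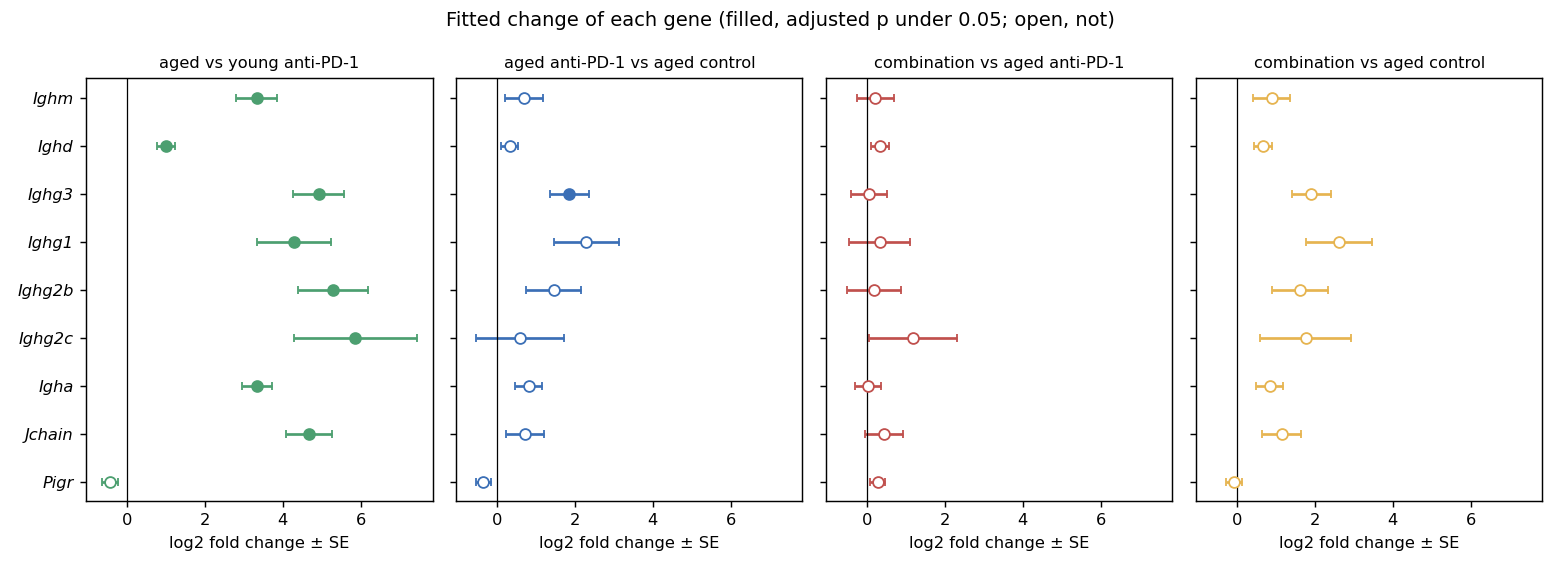
Log2 fold change ± SE of the 9 genes in the 4 comparisons, on a common axis, from the edgeR fit to 12 libraries. Filled points were called: 8 genes for aged over young anti-PD-1, Ighg3 for anti-PD-1 over control, and none in the other panels.

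Class proportions were taken as the share of each class in the heavy chain reads per kilobase of exon. IgM was the main class in every library, at 70.8 ± 0.897% in young, 77.5 ± 3.48% in aged control, 77.3 ± 3.87% in aged anti-PD-1 and 73.5 ± 6.04% in combination lungs (SD, n = 3 each). IgD took 19.4 ± 1.94% in young lungs and 6.54 ± 2.4%, 4.4 ± 1.01% and 4.99 ± 1.74% in the aged groups in that order. The lowest young share of IgD was 17.9% and the highest aged share 8.41%. Per kilobase of secreted transcript the IgD means were 29.2, 10.5, 7.17 and 8.01% in the order of the groups, again without overlap between young (27.0% or more) and aged libraries (13.3% or less). IgG took 3.02 ± 0.995%, 7.49 ± 2.65%, 11.0 ± 3.03% and 14.0 ± 6.29% in the order of the groups, with a difference that narrowly missed the threshold in the test below. IgA held 6.74 ± 1.53%, 8.46 ± 3.36%, 7.28 ± 2.96% and 7.55 ± 4.63%, and 10.4, 13.9, 12.1 and 12.3% per kilobase of secreted transcript.

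Differences between the 4 groups were tested by an exact permutation test of the F statistic over all 15400 assignments of the libraries, adjusted over 3 shares. For IgG the exact p was 0.0199 and the adjusted p 0.0596. It was 0.0261 by raw reads and by the length of the secreted transcript, the latter chosen after seeing the data. It was also under the threshold when aged anti-PD-1 library 3 (0.0265), combination library 1 (0.0413) or combination library 2 (0.0397) was left out. Under the other 11 alternative settings the IgG share stayed uncalled. The IgM share (exact p 0.225, adjusted 0.337) and the IgA share (exact p 0.931, adjusted 0.931) gave no call. The mean IgM share differed by 6.44 percentage points between aged and young anti-PD-1 lungs, higher in aged. With IgD left out of the total the difference was -7.06 points, lower in aged. Between pairs of groups, an exact permutation test of 3 against 3 cannot go below p = 0.1, and none of 12 pairs passed (smallest adjusted p 0.6).

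**Figure D4:**
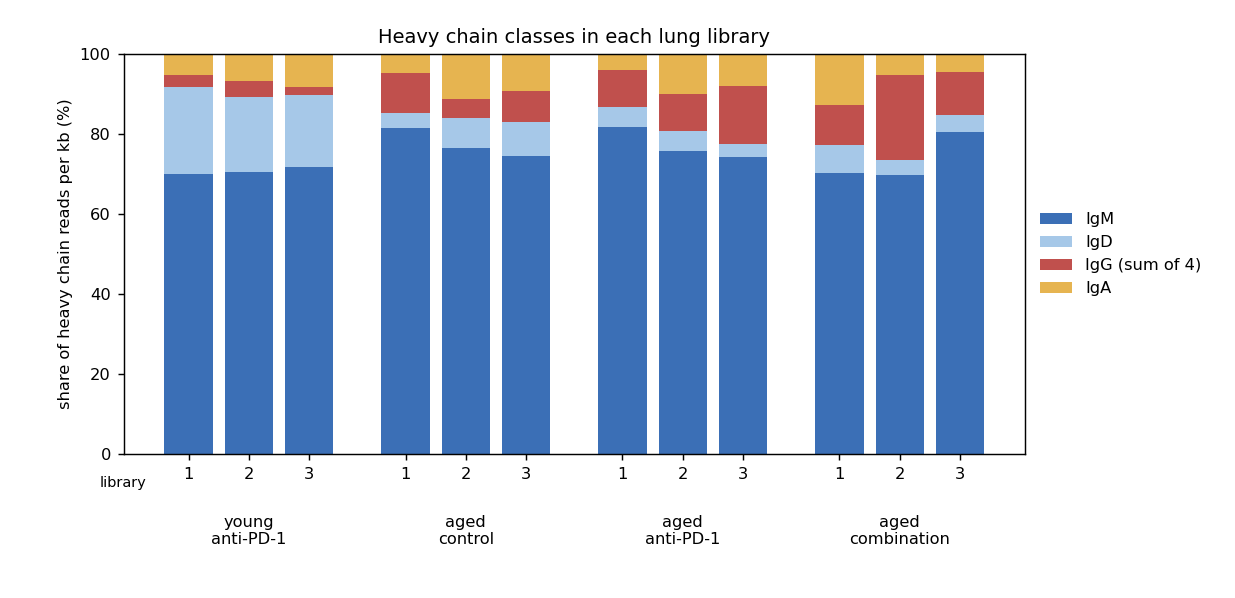
Share of IgM, IgD, IgG (sum of 4 subclasses) and IgA in the heavy chain reads per kilobase of each library, in percent. IgD takes 17.9 to 21.6% in young libraries and 3.24 to 8.41% in aged ones, and the largest IgG share is 21.2% in combination library 2.

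Within IgG, the subclass that led differed from library to library. Per kilobase of exon, Ighg1 made up 32.7, 51.2 and 26.3% of IgG in young libraries and 8.23, 14.1 and 12.2% in aged control. It made up 52.8, 17.9 and 9.32% in aged anti-PD-1 and 13.3, 6.4 and 45.2% in combination libraries. Ighg2c made up 31.1, 23.0 and 22.9% of IgG in young and 67.5, 46.4 and 53.9% in aged control libraries. These did not overlap, but the groups differ in both age and treatment. Its share was 19.8, 43.3 and 51.6% in aged anti-PD-1 and 30.4, 75.0 and 27.6% in combination libraries. Under the same anti-PD-1, young and aged libraries thus overlapped.

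In some aged libraries, which subclass led depended on the length used. In young libraries it did not: Ighg1 led libraries 1 and 2 and Ighg2b led library 3 on every scale. Ighg1 led aged anti-PD-1 library 1 and combination library 3, Ighg2b led combination library 1, and Ighg2c led aged control library 1 and combination library 2, per kilobase of exon, by raw reads and per kilobase of secreted transcript alike. In aged control libraries 2 and 3 and aged anti-PD-1 libraries 2 and 3, Ighg2c led per kilobase of exon and Ighg2b by the other measures. By raw reads, Ighg2b took 36.5% of IgG and Ighg2c 34.2% in aged control library 2, 41.1 and 38.6% in aged control library 3, 35.6 and 31.0% in aged anti-PD-1 library 2, and 45.9 and 36.9% in aged anti-PD-1 library 3. The Ighg2c share was 13.9 to 19.6% in young and 34.2 to 52.8% in aged control libraries by raw reads, still without overlap. Aged anti-PD-1 library 1, at 11.6% by raw reads, lay below the young range. The Ighg2b share ranged from 14.1 to 40.3% per kilobase of exon and from 17.7 to 49.6% by raw reads. Ighg3 took 2.87 to 22.2% of IgG per kilobase of exon, where its length lacks the membrane exons, 1.4 to 12.6% by raw reads and 1.41 to 12.8% per kilobase of secreted transcript, with the extremes in combination libraries 3 and 1 each time. The subclass shares were not tested.

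**Figure D5:**
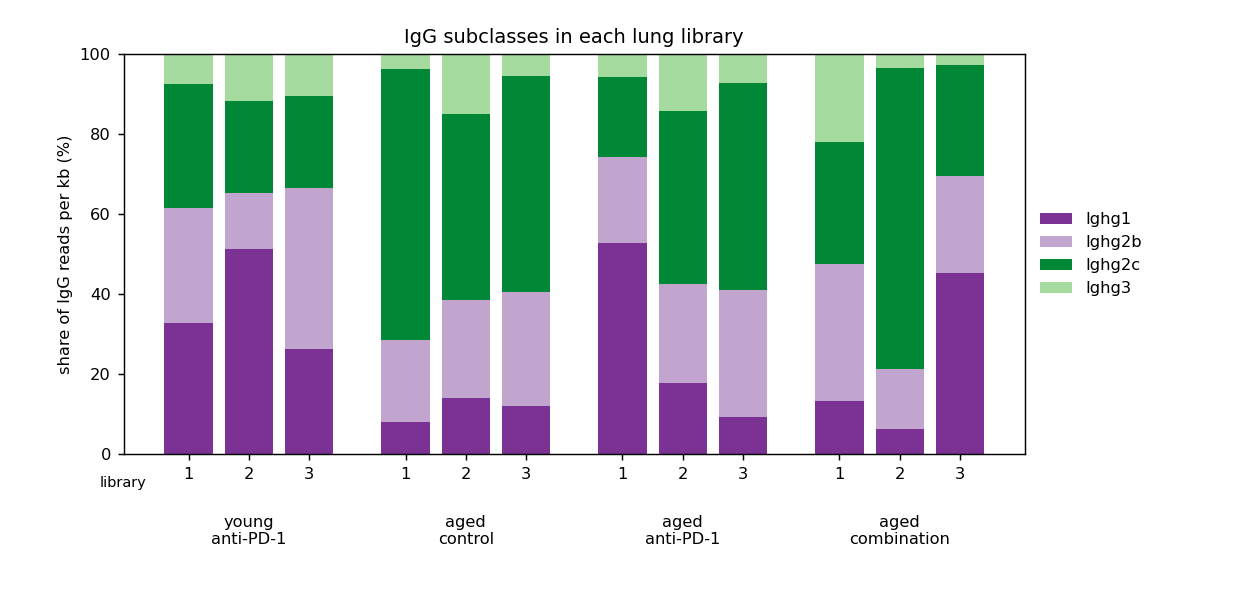
Share of Ighg1, Ighg2b, Ighg2c and Ighg3 in the IgG reads per kilobase of each library, in percent. Ighg2c takes 46.4 to 67.5% in aged control libraries on this scale, while by raw reads Ighg2b leads libraries 2 and 3 of aged control and of aged anti-PD-1. Ighg1 leads aged anti-PD-1 library 1 and combination library 3 on both.

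Among the other immunoglobulin chains (kappa and lambda constant genes, surrogate light chains and the B cell receptor signalling chains), 6 of 8 tested genes rose in aged over young anti-PD-1 lungs and none fell, with a median of 0.88. With any 1 library of these groups left out, 2 to 4 were called, fewest without young library 2. Of all genes tested, 8.09% were called higher and 7.16% lower in this comparison. Igkc, the kappa light chain, rose from 89.6 ± 6.03 to 929 ± 345 CPM (3.37 ± 0.54, edgeR adjusted p 0.00358), as much as Ighm. The lambda gene Iglc3 rose by 0.97 ± 0.21 (edgeR adjusted p 0.00986). Lambda reads were 37.5 ± 1.81% of constant light chain reads in young lungs, against 12.6 ± 3.95% in aged control, 13.1 ± 0.851% in aged anti-PD-1 and 10.9 ± 1.66% in combination lungs (SD, n = 3 each). These are shares of raw reads and were not tested, and sequence shared between light chain genes was not checked. With all libraries, no gene of this list was called in the other comparisons, where Igkc gave 0.43 ± 0.49 (anti-PD-1 over control), 0.66 ± 0.50 (combination over anti-PD-1) and 1.09 ± 0.50 (combination over control).

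Of 21 genes of plasma cells and the secretory pathway, 7 rose with age under anti-PD-1 and 1 fell (median 0.31). The 7 became 3 without aged anti-PD-1 library 3 and 4 without young library 3, and were 6 or 7 without any of the other libraries. Mzb1, a chaperone that helps assemble IgM, rose from 6.39 ± 1.47 to 22.9 ± 5.06 CPM (1.84 ± 0.38, edgeR adjusted p 0.00855). The gene that fell was Sdc1, a plasma cell surface marker that lung epithelium also carries (-0.75 ± 0.18, edgeR adjusted p 0.0151). Its call was lost without aged anti-PD-1 library 3 or young library 3 (highest edgeR adjusted p 0.089). Xbp1, the transcription factor of the secretory programme, had a mean of 182 CPM in both groups. In aged anti-PD-1 over aged control lungs 2 of these genes rose, among them Pou2af1, a B cell coactivator, at 33.9 ± 2.89 against 18.3 ± 3.74 CPM (0.89 ± 0.17, edgeR adjusted p 0.00857). That count was 1 to 3 with 1 library left out, with 1 when any aged anti-PD-1 library or aged control library 2 was left out. Combination over anti-PD-1 gave 1 higher and 2 lower. Both became 0 when aged anti-PD-1 library 1 or combination library 2 was left out. Combination over control gave 0 in edgeR. Called shares over all genes tested were 8.09% higher and 7.16% lower with age. They were 5.34 and 5.58% for anti-PD-1 over control, and 4.67 and 4.35% for combination over anti-PD-1.

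The B cell marker list moved the same way as the heavy chains. Of 14 genes, 11 rose in aged over young anti-PD-1 lungs (median 0.90) and 4 rose in aged anti-PD-1 over aged control lungs (median 0.30), with none lower. Leaving out 1 library gave 7 or 8 in the former, with 7 without aged anti-PD-1 library 3 or young library 2. In the latter it gave 0 higher without aged anti-PD-1 library 1 or 3 or aged control library 1 or 2. It gave 2 without aged anti-PD-1 library 2 and 4 without aged control library 3. Without aged control library 1, 1 gene was called lower in the latter. Ms4a1, which encodes CD20, rose 1.39 ± 0.23 in the first of these (edgeR adjusted p 0.00264). The medians of the heavy chain genes were 4.29 and 0.81. Called higher over all genes tested were 8.09% with age and 5.34% in anti-PD-1 over control. Cd79a and Cd79b are in both this list and that of the other immunoglobulin chains. What part B cell number plays in the heavy chain values was not tested.

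Of 23 tested genes of class switch recombination and its repair steps, 1 rose with age under anti-PD-1 (Msh6, 0.47 ± 0.13, edgeR adjusted p 0.0266) and none fell, with a median of 0.05. The Msh6 call was lost without aged anti-PD-1 library 2 or 3 or young library 2 or 3 (highest edgeR adjusted p 0.109). Of the same 23, Rif1 rose and Supt4a fell in aged anti-PD-1 over aged control lungs, and Apex2 and Supt4a rose and Msh6 fell in combination over anti-PD-1 lungs. Each of these 5 calls was lost when certain single libraries were left out, among them aged anti-PD-1 library 1 in every case. None of the 23 was called in combination over control. Over all genes tested, the called shares in these comparisons were 15.3% with age, 10.9% for anti-PD-1 over control, 9.02% for combination over anti-PD-1 and 0.0% for combination over control. Ighe, the IgE heavy chain, had 0 to 4 reads in every library. Il21 had 0 to 4 reads in 9 libraries and 15, 5 and 11 reads in the aged anti-PD-1 group.

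Cytokines and factors that steer switching gave 2 higher and 2 lower of 15 tested with age, and 0 in both directions without aged anti-PD-1 library 3. Under anti-PD-1 in aged lungs 3 fell and none rose. There were 0 lower without aged anti-PD-1 library 3 or aged control library 2, and 6 lower without aged control library 1. Of all genes tested, 8.09% were called higher and 7.16% lower with age, and 5.34 and 5.58% under anti-PD-1 in aged lungs. Il6, which helps B cells become plasma cells, was at 50.5 ± 24.2 CPM in aged control, 15.6 ± 2.98 in aged anti-PD-1 and 53.2 ± 18.3 in combination lungs. It fell under anti-PD-1 (-1.70 ± 0.37, edgeR adjusted p 0.0194) and rose with the added antibody to the IL-21 receptor (1.77 ± 0.37, edgeR adjusted p 0.0179), and these comparisons share the anti-PD-1 libraries. Each call was lost when 1 of 3 libraries was left out: aged anti-PD-1 library 1 or 3 in both, with aged control library 2 in the former (highest edgeR adjusted p 0.0712) and combination library 2 in the latter (highest 0.0776). It was also lost without the low-count filter (edgeR adjusted p 0.0605 and 0.0594).

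Among receptors and carriers of antibody other than Pigr, 6 of 17 rose in aged over young anti-PD-1 lungs, none fell, and the median was 0.72. The 6 became 2 without aged anti-PD-1 library 3, 3 without aged anti-PD-1 library 1 or young library 2, and 4 to 7 otherwise. Fcrl5 (2.73 ± 0.55, edgeR adjusted p 0.00605) and Fcrl1 (1.11 ± 0.21, edgeR adjusted p 0.00464), Fc receptor-like proteins of B cells, were among them. Fcgrt, the heavy chain of the neonatal Fc receptor that carries and spares IgG, was at 112 ± 7.78 in aged and 105 ± 9.41 CPM in young anti-PD-1 lungs (0.09 ± 0.11, edgeR adjusted p 0.607). With all libraries, none of the 17 was called in the other comparisons. The shares called with age over all genes tested were 8.09% higher and 7.16% lower.

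Of 10 tested genes for the homing of IgA cells, 3 rose and 1 fell with age, and 1 rose and 3 fell under anti-PD-1 in aged lungs. With 1 library left out, 1 to 3 rose and 0 or 1 fell with age (1 higher without aged anti-PD-1 library 3 or young library 3), and 1 to 4 fell under anti-PD-1 (1 without aged anti-PD-1 library 1 or 2 or aged control library 3). Called shares over all genes tested were 8.09% higher and 7.16% lower with age, and 5.34 and 5.58% under anti-PD-1 in aged lungs. Ccr9, a gut homing receptor, fell from 7.28 ± 2.38 to 1.70 ± 0.642 CPM under anti-PD-1 (-2.11 ± 0.37, edgeR adjusted p 0.00711). Cxcr4, which holds plasma cells in their niches, was higher in combination than in aged anti-PD-1 lungs, at 312 ± 20.8 against 189 ± 22.3 CPM (0.73 ± 0.12, edgeR adjusted p 0.00589). With all libraries, Cxcr4 was also called lower in aged anti-PD-1 than in aged control lungs, and Ccr9 higher in combination than in aged anti-PD-1 lungs. Neither was called in combination over control. These comparisons share the aged anti-PD-1 libraries.

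Of 20 genes of the airway epithelium around Pigr, 4 fell and 1 rose in aged over young anti-PD-1 lungs, with a median of -0.36. The 4 became 2 without aged anti-PD-1 library 1 or 3 or young library 2 or 3. Of all genes tested, 7.16% were called lower and 8.09% higher in this comparison. Bpifb1, a secreted airway defence protein, fell from 223 ± 34.0 to 57.6 ± 12 CPM (-1.95 ± 0.37, edgeR adjusted p 0.00651). Scgb3a1, a secretoglobin of airway secretory cells, fell from 368 ± 29.1 to 127 ± 10.1 CPM (-1.54 ± 0.31, edgeR adjusted p 0.00716). Relb, a subunit of NF-kappa B in this list because that pathway drives Pigr, fell under anti-PD-1 in aged lungs (-0.51 ± 0.10, edgeR adjusted p 0.011). Relb was called higher in combination over anti-PD-1 lungs, a comparison that shares the anti-PD-1 libraries, and was not called in combination over control. The higher call was lost with library totals or without aged anti-PD-1 library 2 (edgeR adjusted p 0.0651 and 0.0549). The summed airway secretory markers ran from 21955 to 30176 CPM in young, 20108 to 30503 in aged control, 15293 to 19097 in aged anti-PD-1 and 15773 to 22161 in combination libraries. All 6 markers of type 2 alveolar cells fell in aged over young anti-PD-1 lungs. Whether cell makeup takes part in the Pigr values was not tested.

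Among themselves, the antibody genes varied together over the 12 libraries, which include the age difference. Pearson's r of log2 CPM was 0.982 between Ighm and Ighg2b, 0.977 between Ighm and Jchain and 0.971 between Igha and Jchain. Over the 9 aged libraries alone the values were 0.922, 0.913 and 0.79. Within the aged libraries Ighg1 and Igha were the least alike of the heavy chains (0.339), and Ighg3 and Igha among the most alike (0.89). Pigr gave r between -0.537 and -0.247 with the other genes over 12 libraries.

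Among 14975 other expressed genes, the profile most like that of Ighm belonged to Mzb1 (r 0.967 over 12 libraries, 0.956 over the 9 aged). Gpr18 (0.935), H2-Oa (0.934), Ltb (0.934) and Cd163l1 (0.933) followed, with 0.659 (Cd163l1) to 0.831 (H2-Oa) over the aged. For Jchain the nearest were Cd163l1 (0.97, and 0.799 over the aged), Ccl20 (0.948, and 0.74) and C130026I21Rik (0.947, and 0.449). Mzb1 (0.946, and 0.952 over the aged) and the mitochondrial ribosomal RNA gene mt-Rnr1 (0.944, and 0.598) came next. Igha was most like Cd163l1 (0.954), A530040E14Rik (0.948), C130026I21Rik (0.946), Ccl20 (0.945) and BC051537 (0.943). Over the aged libraries these gave 0.653, 0.652, 0.528, 0.803 and 0.827 in that order. The nearest to Pigr were Wnk2 (0.933), Cfd (0.902), Reg3g (0.898), Ccdc67 (0.895) and Oit1 (0.89). For Wnk2 the value was 0.931 over the aged libraries alone, and the others ran from 0.889 to 0.929 there. These correlations describe libraries that differ in age and depth, and carry no test. Those over 12 libraries include the age difference.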

How the data were processed

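Raw read counts per gene, 1 column per library, were used as the authors deposited them, with no normalization per the file headers. Per the submitters' processing notes, the tools were HISAT2, featureCounts 1.6.3, Trimmomatic and bcl2fastq 1.8.4, and the build was mm10; options and strand setting are not given in the sources used here. The library kit was directional with poly(A) selection, per the labels' protocols.

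Genes were filtered with filterByExpr by group (minimum count 10, minimum total 15). The 12 libraries were fitted together in edgeR 4.0.16 (R 4.3.3, limma 3.58.1) by a robust quasi-likelihood model of 4 group means with TMM factors and 8 residual degrees of freedom, and groups were compared by two-sided F tests. SE was derived from F as the size of the log2 fold change over its square root. The script was tested on simulated data. Spread within groups went beyond counting noise (chi-square per degree of freedom 9.64 to 48.2). Same-numbered libraries were not treated as pairs (median residual correlation -0.012 over 18 pairs).

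Class shares used reads per kilobase of the exon union in GENCODE M21, kept to the deposited span of each gene, so the length of Ighg3 was 1082 bases without its membrane exons; raw reads and secreted transcript length were alternatives. No deposited gene overlaps any of the 9. Correlations used log2 CPM with a prior count of 2, among genes whose average log2 CPM was 0 or more.

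The 9 genes and the 8 lists were chosen with earlier results of these data known. Named list genes came from the called genes with the largest change and the uncalled genes with the highest expression, up to 3 and 2 a list and comparison, and a selection is printed. Ighe and Il21 were named after their counts were seen, as were Xbp1 and Sftpc. Alternatives were limma-voom, DESeq2 1.42.0, library totals, RLE factors, scaling without immunoglobulin, haemoglobin and mitochondrial genes, other filters, a replicate block, fits of 2 groups, and leaving out each library. The result for 1 list gene is not reported here.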

Additional observations from a re-analysis of the deposited data

How the results depend on the processing

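For aged over young anti-PD-1, leaving out 1 library gave 1160 to 2237 genes called (2830 with all) and 5 to 8 of the 9 antibody genes, with 5 when young library 2 or 3 was left out. For anti-PD-1 over control, DESeq2 called 2 of the 9, and limma-voom, no filter and the replicate block each called 0 (Ighg3 adjusted p 0.0664 with the replicate block); leaving out 1 library gave 0 to 2 of the 9 and 607 to 1995 genes (2025 with all), and a fit of 2 groups gave 881 genes. The replicate block also ended the Ighg2c call with age (edgeR adjusted p 0.091) and turned Ighg3 in combination over anti-PD-1 to -0.04. For combination over anti-PD-1, DESeq2 called 2595 genes, library totals 3038 and leave-one-out fits 260 to 1439 (1674 with all). For combination over control, DESeq2 called 76, no filter 11 and leave-one-out fits 0 to 13.

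The IgG share difference between aged and young anti-PD-1 lungs was 7.85 percentage points by raw reads and 9.89 by secreted transcript length (a choice made after seeing the data), and 6.28 to 8.93 with 1 library left out. With IgD left out of the total, the IgM difference was -7.06 and the IgA difference -0.719; with 1 library left out the IgA difference ran from -0.764 to 2.15.

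Some uncalled log2 fold changes turned sign. In combination over anti-PD-1, library totals, which shifted the median of all genes by -0.206, gave Ighm -0.01, Ighg2b -0.03, Ighg3 -0.14 and Igha -0.17. Leaving out 1 library there gave Ighm -0.11 to 0.54, Ighg1 -0.64 to 0.96, Ighg2b -0.29 to 1.00, Ighg2c -0.84 to 2.18, Ighg3 -0.29 to 0.44 and Igha -0.31 to 0.35. Ighg2c ran from -0.40 to 1.91 in anti-PD-1 over control and from -0.24 to 3.10 in combination over control, and Pigr from -0.25 to 0.15 in the latter. No call among the 9 genes reversed its direction. The Ighd call with age was lost without a filter (edgeR adjusted p 0.055). The cause of these changes was not tested. Ighg3 and Ighg2c had the fewest reads of the 9 genes in young lungs, at 6 to 12 and 16 to 36.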
